A study of Drosophila melanogaster with 12 samples.

Results

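Gene expression in ovaries of su(Hw)A2663/v mutant females was compared with that in ovaries of the wild-type strain BL15598. The 6 arrays compared, 3 per genotype, were chosen by the genotype in their labels from the 12 arrays of the series. The series also holds 3 arrays of a second mutant, su(Hw)Pb/2, and 3 of the wild type Canton S. According to the labels, all ovaries came from virgin Drosophila melanogaster females 4 to 6 h after eclosion, an age at which the oldest egg chambers have reached stage 8, whereas mutant egg chambers die at stage 9. The comparison thus addresses the mutant ovary before that death. Each array carried RNA of a separate biological replicate pooled from about 100 pairs of ovaries.

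BL15598 females were y[1] w[67c23] and carried the P element EPgy2 inserted at CG6499 (EY02782), a gene now named Amt. The mutant females carried the same insertion, with the alleles y[2], ct[6] and f[1] beside w[67c23] on their X chromosome, and their genotype label gives the su(Hw) alleles A2663 and 2. The names of these samples give the second allele as v instead, and the labels do not settle which is meant. The X-linked alleles y[2], ct[6] and f[1] are thus carried by the mutants and not by BL15598, and their effects cannot be told apart from those of su(Hw) by this comparison alone. Females of the su(Hw)Pb/2 mutant carried the same 4 X-linked alleles, no such insertion according to their label, and the su(Hw) alleles e04061 and 2.

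Su(Hw), Suppressor of Hairy-wing, is a zinc-finger protein that binds DNA at many chromosomal sites and at the insulator of the gypsy retrotransposon. Females that lack it are sterile because oogenesis stops midway. Each egg chamber consists of an oocyte and its nurse cells, which form the germline, under a layer of somatic follicle cells. Follicle cells divide early, switch under Notch signalling to cycles without division, and from the middle of oogenesis make yolk and then eggshell proteins.

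Values are the deposited log2 signals of Affymetrix probe sets, and 1 probe set represents each gene. A signal of log2 5 was taken as the floor below which probe sets were treated as near background. Of 11983 genes on the array, 5989 exceeded that floor on at least 3 of the 6 arrays and were tested. A gene was called changed when the limma fit gave an adjusted p under 0.05 and the groups differed at least 2-fold, and n was 3 arrays for every group mean. Where every array of one group lay below the floor, the fold is a lower bound obtained by raising low signals to the floor.

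Over all tested genes the arrays of one genotype correlated at 0.9822 to 0.9944, and arrays of the different genotypes at 0.9238 to 0.9374. Germline markers were present, and limma called none of the 6 tested (2 higher at an unadjusted p under 0.05, median log2 change 0.11). The share of all tested genes at that unadjusted p was not counted. Digestive enzyme markers differed among replicates. Of 26 such genes, 10, 1 and 11 exceeded the floor on the A2663/v arrays 1, 2 and 3, against 2, 4 and 1 on those of BL15598. Only 4 of them passed the filter, and limma called none, with none at an unadjusted p under 0.05. The 3′ minus 5′ signal of the GAPDH control was 2.43 ± 0.06 (SD, n = 3) in A2663/v and 1.86 ± 0.17 in BL15598, and that of the eIF-4a control 2.86 ± 0.18 and 2.18 ± 0.15. The exact two-sided permutation test gave p = 0.1 for both, the smallest that 3 against 3 arrays allow, and an adjusted p of 0.167 over 5 quality measures. The part of these differences in the results below was not tested.

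The su(Hw) transcript was near background in A2663/v ovaries. Its log2 signal was 2.51, 2.63 and 2.52 on the mutant arrays and 9.03, 8.78 and 8.86 on the BL15598 arrays. The 3 mutant values lay below the floor, at least 14.8-fold below BL15598 (limma adjusted p = 8.66e-12). Among the genes of the marker alleles, forked (f), which encodes an actin-bundling protein of bristles, rose. Its signals were 8.20, 8.26 and 8.09 in A2663/v and 5.88, 3.70 and 4.22 in BL15598, which is a difference of 3.59 ± 0.38 on the log2 scale (SE, adjusted p = 5.15e-06). The alleles y[2], ct[6] and f[1] are gypsy insertions whose phenotypes are known to be relieved by loss of Su(Hw). The f allele differs between the 2 genotypes, so its effect and that of su(Hw) on this signal cannot be told apart.

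The homeodomain gene cut (ct) did not pass the test, at 8.05 ± 0.17 in A2663/v and 8.06 ± 0.18 in BL15598 (SD, adjusted p = 0.963). The pigmentation gene yellow (y) and the ammonium transporter gene Amt, at which the P element lies, were below the floor on all 6 arrays, as was IFT54, the gene next to su(Hw). CG42404, next to Amt in gene order, had signals of 5.67, 6.28 and 5.98 in A2663/v and 6.12, 5.53 and 6.16 in BL15598, with overlapping groups. The same gene was at 3.04 ± 0.17 in su(Hw)Pb/2 and 2.80 ± 0.05 in Canton S, both without this insertion. Hsc70-4, a constitutive chaperone gene on the other side of Amt, differed by only 0.15 ± 0.04 (SE, adjusted p = 0.0124) and missed the 2-fold minimum. Of the 5 tested genes within 10 positions on either side of su(Hw), 1 was called, MetRS-m, which was lower. Of the 15 tested near Amt, 1 was called higher, the checkpoint kinase gene tefu. Near y 2 of 7 were called, CG32816, which was lower, and the P450 gene Cyp4g1, which was higher. Over all tested genes 6.86% were called.

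Across the genome 411 genes were called, 6.86% of those tested. In A2663/v 252 genes were higher (4.21%) and 159 lower (2.65%), and the median log2 change of all tested genes was -0.000467. The median log2 change was 1.5 among the genes that rose and -1.41 among those that fell, or 1.26 and -1.298 with low signals raised to the floor. In 251 of the 252 and 158 of the 159 the 3 mutant arrays did not overlap the 3 BL15598 arrays. Over all tested genes the mutant arrays lay wholly above in 28.5% and wholly below in 28.9%. BL15598 was below the floor on all 3 arrays in 80 of the 252 genes that rose, so these transcripts were near background in the wild type and measurable in the mutant. The converse held for 32 of the 159 that fell. With low signals raised to the floor, 56 rises and 32 falls were at least 4-fold, and 17 and 9 at least 8-fold, while 37 of the 252 and 15 of the 159 were then under 2-fold. Genes known by a CG or CR number or an lncRNA name made up 85 of the 252 and 75 of the 159. Their share of all tested genes was not counted, so these 2 counts cannot be set against it.

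**Figure D1:**
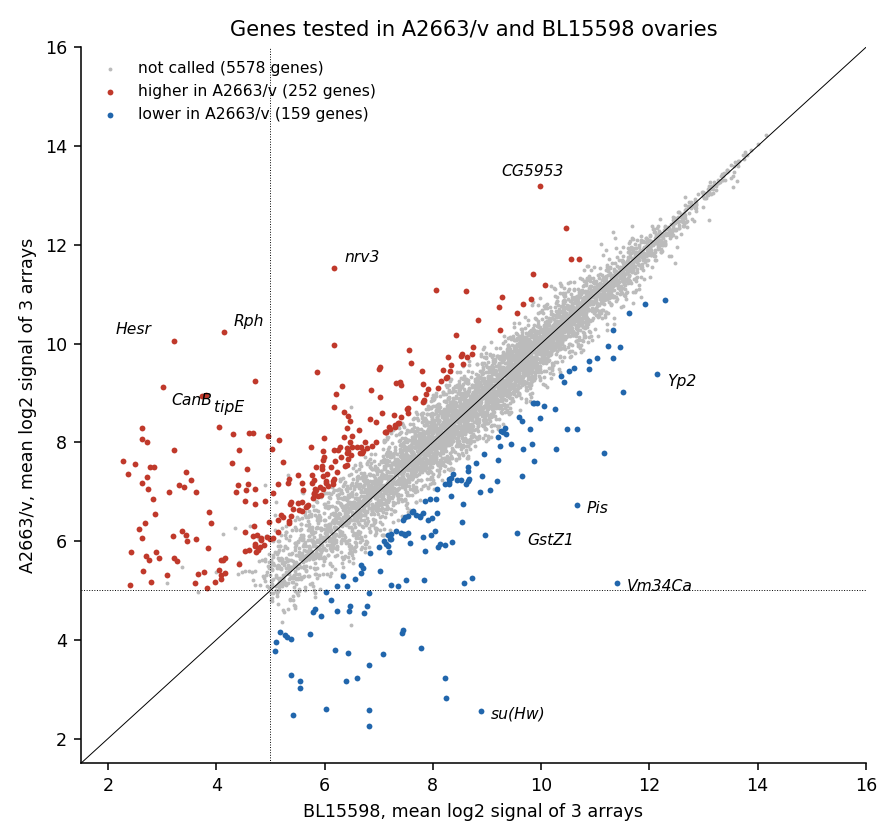
Mean log2 signal of each of the 5989 tested genes in BL15598 (horizontal axis) and A2663/v ovaries (vertical axis), 3 arrays each, with dotted lines at the floor of log2 5 and a solid line of equality. Red points mark the 252 genes that were higher and blue points the 159 that were lower. Many red points lie left of the floor line, and su(Hw) is near background in the mutant.

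The largest rises included several genes known from the nervous system. Ranked with low signals raised to the floor, the first was nrv3, which encodes a beta subunit of the sodium pump. As fitted, Hesr (6.82), CanB (6.10), Rph (6.09) and CG9813 (5.66 on the log2 scale) rose by more, from BL15598 signals below the floor. The signals of nrv3 were 11.56, 11.42 and 11.64 in A2663/v and 7.15, 5.75 and 5.65 in BL15598, a rise of 5.36 ± 0.38 on the log2 scale (SE, adjusted p = 7.98e-08). Rph, rabphilin, a protein of synaptic vesicles, gave 9.98, 10.31 and 10.42 against 4.09, 4.71 and 3.63, at least 37.7-fold higher (adjusted p = 7.23e-11). The BL15598 arrays lay below the floor for Rph and the mutant arrays all at about log2 10.

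Hesr, a bHLH-Orange gene of the family of Notch-responsive repressors, rose at least 32.98-fold. Its signals were 10.09, 9.96 and 10.08 in A2663/v and 3.22, 3.77 and 2.66 in BL15598 (adjusted p = 1.70e-09). CanB, the regulatory subunit of the phosphatase calcineurin, was at 9.10, 9.16 and 9.11 in the mutant and 2.98, 3.32 and 2.76 in BL15598, at least 17.4-fold higher (adjusted p = 1.37e-12). The mutant arrays lay close together for both genes, and every BL15598 array was below the floor.

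tipE, an auxiliary subunit of the voltage-gated sodium channel, rose at least 15.62-fold, from 4.20, 3.60 and 3.64 to 8.83, 8.91 and 9.15 (adjusted p = 1.54e-10). Its pore-forming partner para was below the floor on all 6 arrays. The protein kinase gene cdi rose from 6.25, 5.69 and 5.62 to 9.32, 9.42 and 9.56 (11.9-fold, adjusted p = 5.74e-10). The other 6 of the 12 largest rises have no established function that can be given here. CG32017, CG17778 and CG9813 were below the floor on every BL15598 array and rose at least 15.3-fold, 9.99-fold and 9.85-fold (adjusted p = 3.40e-12, 2.48e-07 and 1.36e-11). CG6329 gave 9.25, 9.21 and 9.28 against 4.37, 5.54 and 4.22 (adjusted p = 9.64e-09), and its second probe set also lay higher, by 2.45 on the log2 scale.

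CG42807 varied most among the mutant arrays of these 12 genes, at 10.28, 9.03 and 10.61 against 6.28, 6.55 and 5.71 (adjusted p = 1.19e-04). CG5953 was already abundant in BL15598 at 9.91, 9.99 and 10.03 and reached 13.14, 13.23 and 13.23 in A2663/v (log2 change 3.23 ± 0.06, SE, adjusted p = 1.10e-13). Canton S was at 12.16 ± 0.12 (SD), and BL15598 minus Canton S was -2.18 on the log2 scale (limma adjusted p = 5.36e-12). A second probe set for CG5953 differed by 0.02 only, at 8.60 in A2663/v and 8.58 in BL15598, so its probe sets disagree.

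**Figure D2:**
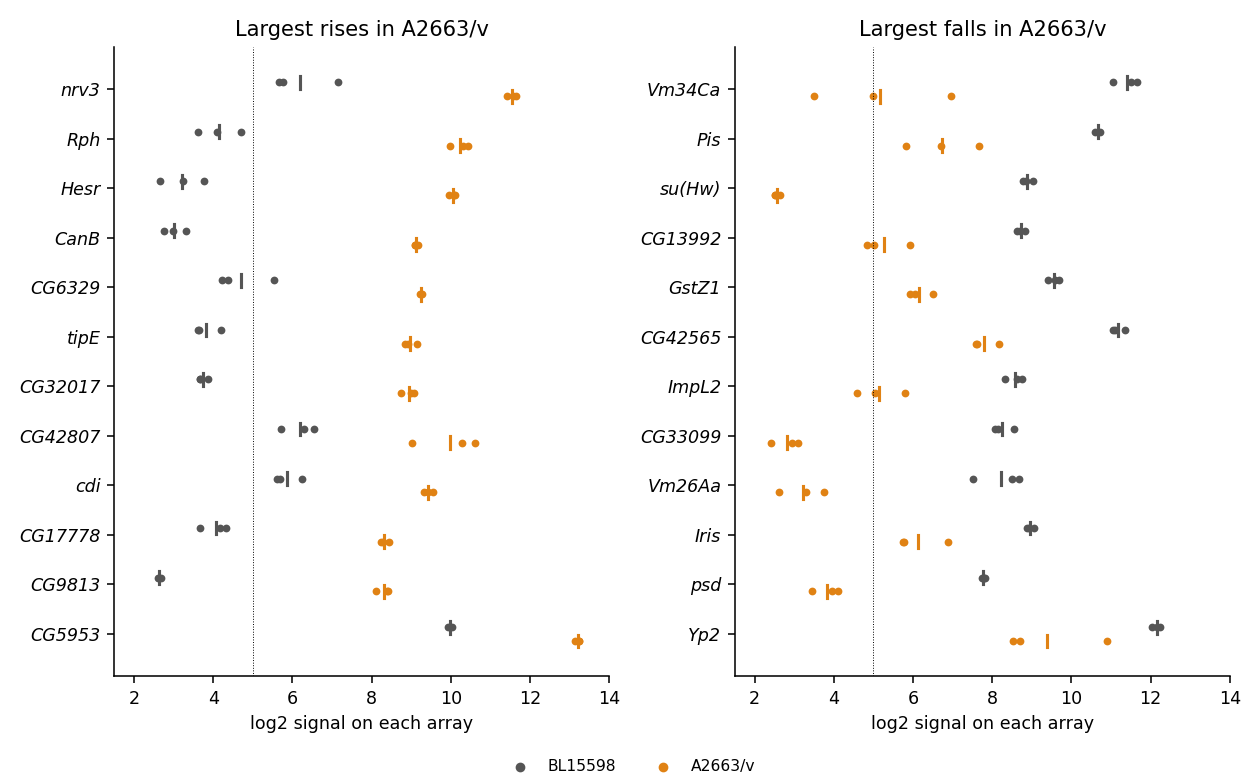
Log2 signal on each array of the 12 genes with the largest rises (left) and the 12 with the largest falls (right), ranked after low signals were raised to the floor. Points are single arrays, vertical bars are means of 3, and dotted lines mark log2 5. No A2663/v point overlaps the BL15598 points in any row, and Vm34Ca, Pis and Yp2 are the most spread among the mutant arrays.

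Ranked with low signals raised to the floor, the largest fall was in Vm34Ca, which encodes a vitelline membrane protein of the inner eggshell. The fitted log2 change of su(Hw), -6.33, was larger, but all its mutant signals lay below the floor. The signals of Vm34Ca were 3.50, 5.001 and 6.96 in A2663/v and 11.05, 11.65 and 11.50 in BL15598, a log2 change of -6.25 ± 0.80 (SE, adjusted p = 3.21e-05). Pis, phosphatidylinositol synthase, gave 6.70, 5.82 and 7.67 against 10.72, 10.59 and 10.68 (15.3-fold lower, adjusted p = 2.20e-07). The probe sets for Pis disagree: a second one was at 5.28 in A2663/v and 5.45 in BL15598, a difference of -0.17, and the remaining one was at background in both. In the probe sets used, both genes were tight in BL15598 and spread over more than 1 log2 unit in the mutant, with replicate 3 the highest.

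GstZ1, a zeta-class glutathione transferase, was at 5.93, 6.504 and 6.04 against 9.68, 9.59 and 9.41, a 10.6-fold fall (adjusted p = 6.75e-09). ImpL2, a secreted protein that binds insulin-like peptides, fell 10.7-fold, from 8.32, 8.63 and 8.76 to 5.04, 4.59 and 5.81 (adjusted p = 1.58e-07). Iris, a gene derived from a retroviral envelope gene, fell 7.09-fold, with mutant signals of 5.77, 5.75 and 6.87 against 9.04, 8.94 and 8.89 (adjusted p = 8.38e-06). Among uncharacterised genes, CG33099 was below the floor on every mutant array and at least 9.53-fold lower (adjusted p = 2.51e-10). CG42565 fell by 3.38 ± 0.17 and CG13992 by 3.46 ± 0.25 on the log2 scale (SE, adjusted p = 1.70e-09 and 1.05e-07).

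Genes of yolk, vitelline membrane and eggshell formed the list with the most falls in number. Of 29 members on the array 17 were tested, 9 were lower and none higher, beside 2.65% of all tested genes lower. In 4 of the 9 every A2663/v array was below the floor, so these entered the test through BL15598 alone and could only be lower. The median log2 change of the 17 was -1.41, or -0.81 with low signals raised to the floor. Vm26Aa and psd (palisade), both vitelline membrane genes, were below the floor on every mutant array. Vm26Aa gave 2.62, 3.31 and 3.74 against 7.51, 8.67 and 8.49, at least 9.33-fold lower (adjusted p = 6.42e-04). psd gave 3.46, 4.11 and 3.94 against 7.81, 7.78 and 7.73, at least 6.85-fold lower (adjusted p = 6.49e-07).

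The yolk protein genes, transcribed in follicle cells and fat body and taken up by the oocyte as nutrient store, all fell. Yp2 was at 8.71, 8.54 and 10.89 in A2663/v and 12.04, 12.24 and 12.17 in BL15598 (log2 change -2.77 ± 0.52, SE, adjusted p = 7.01e-04). Yp3 was at 7.61, 6.93 and 8.32 against 9.77, 10.09 and 9.75 (adjusted p = 1.43e-04), and Yp1 at 10.26, 10.69 and 11.73 against 12.29, 12.34 and 12.27 (adjusted p = 0.00179). For each of the 3 genes, replicate 3 was the mutant array nearest to BL15598. In such bulk samples, fewer cells that make a transcript and less transcript per cell cannot be told apart.

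The remaining 3 members, named after their values were seen, were ndl, wbl and tsl, which act in the somatic layer for dorsoventral and terminal patterning of the embryo. ndl changed by -1.55 on the log2 scale. wbl and tsl were below the floor on every mutant array, at least 3.53-fold and at least 1.47-fold lower (adjusted p = 8.68e-06, 3.52e-08 and 4.08e-06), so that for tsl a 2-fold fall rests on signals near background. Beside these falls, 3 of 8 fat body markers were lower, Fbp1 (-1.35), Fbp2 (-1.43) and Obp99b (-1.98 on the log2 scale, adjusted p = 0.00248, 0.00351 and 4.53e-04). Over all tested genes 2.65% were lower. The yolk genes are also known fat body genes. All 8 fat body markers exceeded the floor on every array, and their summed linear signal was 2941 to 3654 in A2663/v and 3439 to 3695 in BL15598. That sum is weighted to the brightest of them, FASN1, at 10.85, 10.87 and 10.92 in A2663/v and 10.42, 10.25 and 10.63 in BL15598. Their mean log2 signal was 7.61 to 8.16 in A2663/v and 8.28 to 8.505 in BL15598. The part of fat body tissue in the yolk gene result was not tested.

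**Figure D3:**
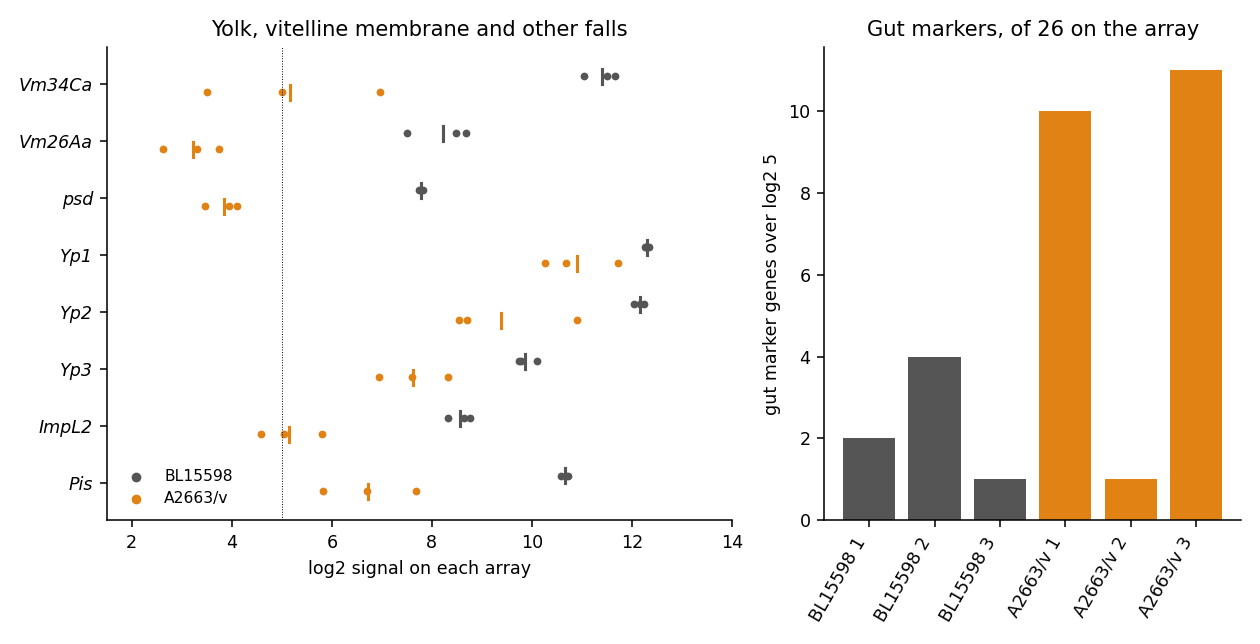
Left, log2 signal per array of 3 vitelline membrane genes, 3 yolk protein genes, ImpL2 and Pis, with bars at the means of 3 arrays and a dotted line at log2 5. Right, number of 26 digestive enzyme genes over log2 5 on each array. The 8 genes are lower on all 3 A2663/v arrays, including array 2, which has 1 digestive enzyme gene over the floor as against 10 and 11 on the other two.

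Most genes with neuronal functions did not pass the signal filter, and those that were called rose, apart from NetB. Their count and direction are no support for a rise of the group, since tipE, Rph, Nlg2, CanB, Ace, 5-HT1A and CadN were below the floor on every BL15598 array, entered the test through the mutant arrays alone and could only be higher. Of 42 ion channel genes on the array 33 did not pass the filter. Of the 9 tested 4 rose and none fell, with a median log2 change of 0.96. Beside tipE these were SK, a calcium-activated potassium channel (7.88, 7.88 and 8.40 against 5.26, 4.50 and 5.71, adjusted p = 8.74e-07), the ERG-type potassium channel gene sei (4.00-fold, adjusted p = 1.80e-07) and the hyperpolarisation-activated channel gene Ih (3.37-fold, adjusted p = 2.21e-07). A second SK probe set was also higher, at 7.31 against 3.91, while a further pair lay at background in both groups.

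Of 42 genes for transmitter synthesis, receptors and neuropeptides, 7 were tested and 5 rose, where 4.21% of all tested genes did. Of the 5, Ace and 5-HT1A passed the filter through the mutant arrays alone. The median log2 change of the 7 was 1.65, or 1.43 with low signals raised to the floor. Ace, acetylcholinesterase, was at 7.34, 7.57 and 7.62 in A2663/v and 2.68, 2.89 and 2.78 in BL15598, at least 5.70-fold higher (adjusted p = 7.00e-09). The tyrosine decarboxylase gene Tdc1 gave 7.93, 7.77 and 7.88 against 5.16, 4.88 and 5.04 (7.13-fold, adjusted p = 1.83e-08). The peptide hormone genes ITP and ETH rose 3.13-fold and 2.69-fold (adjusted p = 2.22e-05 and 1.26e-04). The serotonin receptor gene 5-HT1A, named after its values were seen, was also called, at 5.70 ± 0.32 against 2.71 ± 0.08 (SD, adjusted p = 3.77e-07), at least 1.62-fold higher.

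Of 34 synaptic vesicle and synaptic adhesion genes 13 were tested, and 2 rose, Rph and the neuroligin gene Nlg2 (at least 4.00-fold, adjusted p = 1.93e-09). The median log2 change of the 13 was 0.20. Calcineurin and sodium pump genes had 2 of 7 higher, CanB and nrv3. Axon guidance and adhesion genes had 4 of 20 higher and 1 lower, with a median of 0.35. Beside these lists, 4.21% of all tested genes were higher and 2.65% lower. The risers were the teneurin gene Ten-a (3.36-fold), N-cadherin CadN (at least 2.27-fold), the immunoglobulin adhesion gene rst (2.44-fold) and the semaphorin gene Sema1a (2.40-fold), with adjusted p = 1.03e-08, 3.50e-04, 1.64e-06 and 3.42e-04. The guidance cue gene NetB, named after its values were seen, was lower, by 1.01 on the log2 scale.

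Neuron markers themselves were nearly absent. Of 13 such genes 3 exceeded the floor on each A2663/v array and 2 on each BL15598 array, and their summed linear signal was 221 to 271.4 and 158.8 to 191.1. The defining markers nSyb, brp, para, Snap25, ChAT, VGlut, Gad1 and VAChT, and the glial marker repo, were below the floor on all 6 arrays. Of 3 tested neuron markers CadN alone was called, and of 3 tested glial markers moody alone, a receptor of the blood-brain barrier (2.24-fold higher, adjusted p = 1.32e-04).

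The ELAV family of neuronal RNA-binding proteins includes Rbp9, which is also needed in the female germline. Rbp9 was at 10.88, 11.02 and 10.96 in A2663/v and 9.38, 9.18 and 9.25 in BL15598, a 3.21-fold rise (log2 change 1.68 ± 0.10, SE, adjusted p = 1.96e-08). A second Rbp9 probe set was at background, and with both averaged the log2 change was 0.83, under the 2-fold minimum. The neuronal marker elav was at 6.21, 5.84 and 5.77 against 5.53, 5.61 and 5.73 and did not pass the test (adjusted p = 0.155), and fne was below the floor on all 6 arrays.

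Among follicle cell signalling genes of the Notch, EGFR and JAK/STAT pathways, the median log2 change of the 21 tested was 0.59. Of them 4 were higher and none lower, where 4.21% of all tested genes were higher. These were Hesr, described above, the Notch target E(spl)m7-HLH (6.79, 6.86 and 6.77 against 4.79, 4.81 and 5.10, adjusted p = 2.04e-06), the receptor gene Egfr itself (2.00-fold, adjusted p = 0.00283) and mirr. mirr, a homeodomain gene that patterns the anterior and dorsal follicle cells, was at 7.28, 7.40 and 6.72 against 4.32, 4.53 and 4.38, at least 4.39-fold higher (adjusted p = 9.76e-09). It was the 1 gene called among 13 tested transcription factors of segmentation and neurons. Hesr and mirr lay below the floor on every BL15598 array, passed the filter through the mutant arrays alone and could only be higher. The log2 change of Egfr was under the 2-fold minimum without BL15598 array 2 (0.86), A2663/v array 2 (0.93) or A2663/v array 3 (0.991). Of 7 tested follicle cell markers mirr was higher and the 3 yolk protein genes lower.

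**Figure D4:**
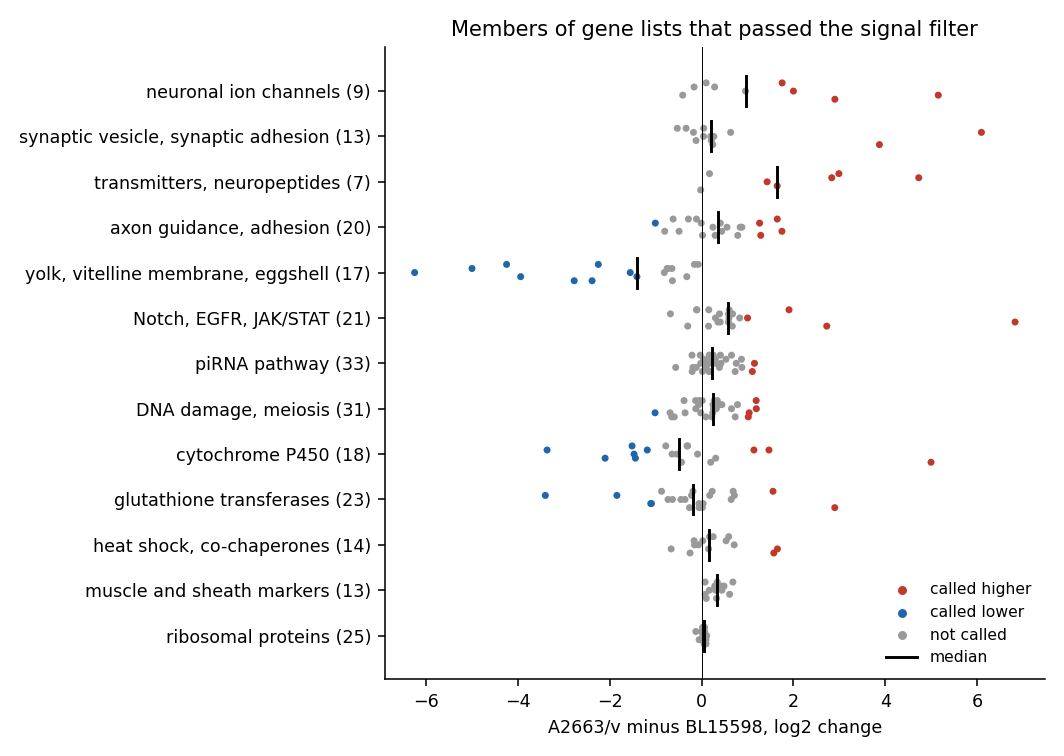
Log2 change (A2663/v minus BL15598) of each tested member of 13 gene lists, with the number of tested members in parentheses and a black bar at the list median. Values are as fitted, without raising low signals to the floor. Red and blue points are members called higher and lower, and grey points were not called. The ion channel and transmitter rows hold no blue point, the yolk and eggshell row holds no red point, and the ribosomal protein row lies near 0.

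Lists of germline stem cell, oocyte patterning and piRNA genes were called at shares near or below the 6.86% of all tested genes. Of 27 germline stem cell and differentiation genes 1 was called (3.7%), tut, which was higher, and whose product is known to act with Bam in the male germline. tut was at 7.09, 7.05 and 7.14 against 3.35, 3.47 and 3.36, at least 4.27-fold higher (adjusted p = 2.29e-09). It was at 8.61 ± 0.52 in Canton S and 9.07 ± 0.07 in Pb/2 (SD), both above A2663/v. BL15598, below the floor on every array, was at least 12.2-fold lower than Canton S (limma adjusted p = 5.64e-11). Of 31 oocyte patterning and mRNA localisation genes 2 were lower (6.45%). exu, exuperantia, needed for localisation of bicoid mRNA, fell 5.02-fold (7.34, 7.34 and 7.30 against 9.60, 9.64 and 9.72, adjusted p = 2.71e-08), and Pxt, a peroxidase with a role in follicle maturation, fell 2.44-fold (adjusted p = 5.83e-07).

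Of 33 piRNA pathway genes 2 rose (6.06%, beside 4.21% of all tested genes), cuff (2.22-fold) and krimp (2.15-fold), which act in piRNA precursor transcription and in the nuage (adjusted p = 1.12e-06 and 1.21e-05), with a list median of 0.22. DNA damage and meiosis genes had 4 of 31 higher and 1 lower (16.1% called, beside 6.86% of all tested genes). Those higher were corolla, a synaptonemal complex component, tefu, the ATM kinase, the meiotic kinesin ncd and the replication checkpoint gene mus101, with log2 changes of 1.19, 1.19, 1.04 and 1.02 (adjusted p = 5.06e-04, 0.00143, 4.80e-04 and 2.22e-05). These 4 lay close to the 2-fold minimum. Without BL15598 array 2 the log2 changes of tefu, ncd, mus101 and krimp were 0.79, 0.93, 0.996 and 0.95, under that minimum, and without A2663/v array 3 that of ncd was 0.99.

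Of 27 cell cycle and replication genes the kinase gene Cdc7 alone was called, at 7.76, 7.87 and 7.98 against 9.65, 9.63 and 9.72 (3.47-fold lower, adjusted p = 2.71e-08). Of 15 apoptosis genes the caspase gene Strica was higher (2.20-fold, adjusted p = 2.28e-04) and Buffy, a Bcl-2 family member, lower (2.30-fold, adjusted p = 5.24e-05). Over all tested genes 4.21% were higher and 2.65% lower. For Strica, BL15598 minus Canton S was -1.29 on the log2 scale (limma adjusted p = 1.32e-04). Of 22 insulator protein genes su(Hw) was the 1 called, and the median log2 change of the list was 0.16. The limma fit called none of 25 Polycomb and Trithorax group genes, whose median was 0.24, with 13 higher and 3 lower at an unadjusted p under 0.05. At an adjusted p under 0.05 without a fold minimum 11 were higher and 3 lower, beside 1260 and 1225 of all 5989 tested genes. The share of all tested genes at an unadjusted p under 0.05 was not counted. None of 19 lipid uptake genes was called by limma either (4 higher and 6 lower at an unadjusted p under 0.05), nor any of 25 ribosomal protein genes (3 higher and 1 lower, median 0.05). In the list of innexins and ring canals 1 of 14 was called, again Pxt.

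Cytochrome P450 genes, which oxidise hormones and foreign compounds, changed in both directions. Of 73 on the array 18 were tested, 3 rose and 6 fell, and the median log2 change was -0.49. Over all tested genes 4.21% were higher and 2.65% lower. In 1 of the 3 every BL15598 array was below the floor, and in 2 of the 6 every A2663/v array. These passed the filter through 1 group alone, so their direction was fixed. Cyp6a17 was at 7.46, 7.38 and 7.26 in A2663/v and 2.35, 2.39 and 2.37 in BL15598, at least 5.16-fold higher (adjusted p = 7.23e-11). Its neighbours in gene order moved the other way. Cyp6a20 was at 2.92, 3.42 and 3.34 against 6.81, 6.62 and 6.35, at least 3.02-fold lower (adjusted p = 1.78e-08), and Cyp6a9 at least 3.46-fold lower (adjusted p = 8.32e-06). Cyp6a19 fell 2.85-fold (adjusted p = 1.22e-06). Probe sets of such closely related genes may share signal.

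Glutathione transferase genes had 2 of 23 higher and 4 lower, beside 4.21% and 2.65% of all tested genes. GstE10 lay below the floor on every BL15598 array, passed the filter through the mutant arrays alone and could only be higher. GstE10 was at 7.42, 7.52 and 7.47 against 4.74, 4.30 and 4.68, at least 5.54-fold higher (adjusted p = 4.74e-07), and GstT4 rose 2.94-fold (adjusted p = 2.30e-04). Beside GstZ1 the falls included GstE7, at 6.31, 5.81 and 6.47 against 8.00, 8.35 and 7.78 (3.59-fold, adjusted p = 5.57e-05). In the list of ecdysone and insulin genes 2 of 16 were lower, ImpL2 and Cyp18a1, which inactivates ecdysone (2.27-fold, adjusted p = 8.74e-05).

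Heat shock and co-chaperone genes had 2 of 14 higher, Hsp68 (11.85, 11.06 and 11.34 against 9.86, 10.23 and 9.44, adjusted p = 6.87e-04) and the co-chaperone gene stv (3.14-fold, adjusted p = 3.59e-04). Over all tested genes 4.21% were higher. Of 6 haemocyte markers 1 was called, Pxn, which encodes the matrix enzyme peroxidasin and rose at least 9.03-fold (8.46, 7.99 and 8.08 against 4.78, 3.71 and 4.42, adjusted p = 5.43e-08). Without A2663/v arrays 1 and 3, Hsp68 no longer passed (adjusted p = 0.0523). The summed haemocyte marker signal was 14880 to 15200 in A2663/v and 12310 to 13920 in BL15598. That sum is weighted to the brightest members, Col4a1, vkg and Ppn. Hml, eater, Sr-CI, Sr-CII, PPO1, PPO2 and lz lay below the floor on all 6 arrays. None of 12 immune genes, 13 muscle and sheath markers or 3 testis markers was called by limma. At an unadjusted p under 0.05, 6 of the immune genes, 8 of the muscle markers and 1 of the testis markers were higher and none lower, and the muscle list had a median of 0.33. At an adjusted p under 0.05 without a fold minimum 4, 8 and 1 were higher, beside 1260 of all 5989 tested genes.

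Neighbouring genes were compared pair by pair. Of 3488 adjacent pairs with both genes tested, 10 had both higher, 9 both lower and 8 opposite calls, where 4.21% of single genes were higher and 2.65% lower. Whether such pairs were more frequent than the single calls would give was not tested. CanB lay between XRCC1, a DNA repair gene, and SK, and all 3 were higher, with log2 changes of 2.28 for XRCC1 and 2.90 for SK beside the bound given above for CanB. The pairs with both lower included Yp2 with Yp1, and a row of Vm26Aa, psd and CG13992, whose values are given above.

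The second mutant allowed a comparison that shares no array with this one, su(Hw)Pb/2 against Canton S. Fitted separately on 6 arrays each over 5908 genes, 235 genes (3.98%) were higher in A2663/v and 153 (2.59%) in Pb/2, and 79 were common to both, 33.6% of the first and 51.6% of the second list. Of the lower genes, 143 (2.42%) and 129 (2.18%), 45 were common, 31.5% and 34.9%. Opposite calls were made for 9 of the 235 and 7 of the 143. Of the 235 genes, 75.7% had the same sign in Pb/2 minus Canton S, as against 39% of all genes with that sign, and of the 143, 78.3% as against 61%. The mutants share the X-linked alleles y[2], ct[6] and f[1] and an su(Hw) allele label, so that the common genes cannot be told apart from effects of these.

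Several of the large rises also passed the test in the other comparison. Canton S was below the floor on every array for Rph, CanB, tipE and CG9813, and Pb/2 was at least 34.5-fold, 16.3-fold, 15.6-fold and 8.11-fold higher (limma adjusted p = 1.96e-11, 2.11e-12, 5.80e-11 and 1.99e-11). On the log2 scale nrv3 rose by 4.16 (adjusted p = 1.22e-06). Rbp9 rose by 1.74 (adjusted p = 1.24e-08). Among falls, su(Hw) was below the floor on every Pb/2 array, at least 18.5-fold lower, and GstZ1 changed by -2.61, Cdc7 by -1.37 and CG42565 by -4.43 on the log2 scale (adjusted p = 4.95e-12, 1.21e-07, 5.07e-07 and 5.54e-11).

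**Figure D5:**
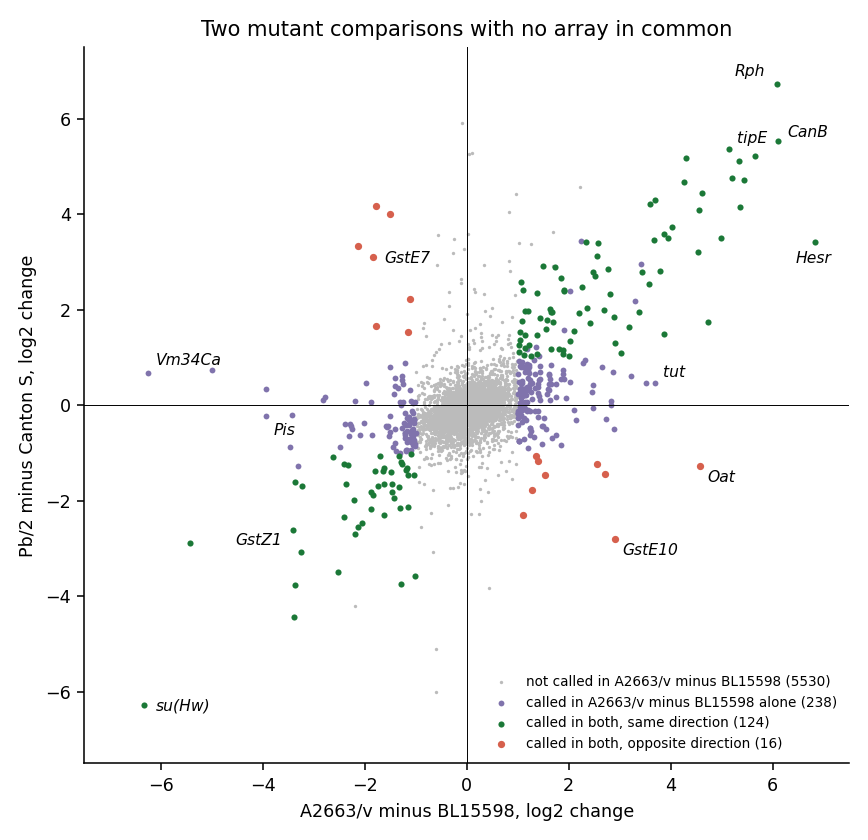
Log2 change of 5908 genes in A2663/v minus BL15598 (horizontal axis) and in Pb/2 minus Canton S (vertical axis), each fitted on its own 6 arrays, without raising low signals to the floor. Green points were called in both with the same direction (124 genes), orange points in both with opposite directions (16), and purple points in the first comparison but not the second (238). Rph, CanB and tipE lie in the upper right, and Vm34Ca and Pis lie at the left near 0 on the vertical axis.

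The difference between the comparisons was tested as an interaction over all 12 arrays. It passed at 2-fold in 268 genes (4.47%) with the larger value in A2663/v minus BL15598 and in 149 (2.49%) with the larger value in Pb/2 minus Canton S. Of the 252 genes higher in A2663/v, the interaction was positive in 117 and negative in 4, and of the 159 lower it was negative in 67 and positive in 3. These genes were chosen by A2663/v minus BL15598, which is itself part of the interaction, so these directions were largely fixed by that choice.

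The changes of Vm34Ca, Vm26Aa and Pis differed from those in the other mutant by this test. Vm34Ca was at 7.92, 10.41 and 11.51 in Pb/2 and 8.90, 9.75 and 9.17 in Canton S, so that its log2 change there was 0.67 (adjusted p = 0.562) and the interaction -6.92 ± 1.12 (SE, adjusted p = 5.79e-04). Vm26Aa was at 6.81 ± 2.65 and 6.06 ± 1.05 (SD), with an interaction of -5.75 (adjusted p = 0.00625), or -4.32 with low signals raised to the floor. BL15598 exceeded Canton S by 2.12 and 2.17 on the log2 scale for Vm34Ca and Vm26Aa, which did not pass the test (adjusted p = 0.0647 and 0.101). The same difference passed for psd, ImpL2, CG13992 and Iris, whose interactions were also negative. It was 1.84, 2.29, 1.64 and 1.29 (adjusted p = 0.00116, 1.49e-05, 2.58e-04 and 0.00811). For Yp1 it was 0.88 (adjusted p = 0.0422), under 2-fold. For Yp2 and Yp3 it was 1.18 and 0.78 and did not pass (adjusted p = 0.112 and 0.110). The brightest Pis probe set differed little in Pb/2 (10.58 ± 0.10 against 10.80 ± 0.26, SD), with an interaction of -3.71 (adjusted p = 3.09e-05) and a BL15598 minus Canton S difference of -0.13 (adjusted p = 0.788), and its second probe set showed no such fall in A2663/v, as given above.

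Further interactions also went with a difference between the wild types. Oat, ornithine aminotransferase, was at 7.22, 7.25 and 7.42 in A2663/v and 3.08, 2.37 and 2.72 in BL15598 but at 9.59 ± 0.17 in Pb/2 and 10.87 ± 0.17 in Canton S (SD), and BL15598, below the floor on every array, was at least 58.3-fold lower than Canton S (adjusted p = 7.10e-14). GstE10 was at 8.48 ± 0.26 in Canton S and CG8888 at 7.85 ± 0.38, against 4.57 ± 0.24 and 5.83 ± 0.11 in BL15598, and their log2 changes in Pb/2 minus Canton S were -2.80 and -2.31. GstE7 and hpRNA:CR32207, a hairpin RNA gene, were low in Canton S at 4.18 ± 0.34 and 3.62 ± 0.28 all arrays below the floor, and were at least 4.91-fold and 6.18-fold higher in Pb/2. For Send1, a protease gene known from the spermathecae, the wild-type difference did not pass the test (BL15598 minus Canton S -1.91, adjusted p = 0.283). That difference rested on Canton S array 3, with signals of 2.46, 2.47 and 8.28 in Canton S, and Pb/2 was at 2.47 ± 0.02 (SD). Send1 had signals of 9.78, 7.24 and 5.66 on the A2663/v arrays and 2.47, 2.50 and 2.50 on those of BL15598 (adjusted p = 0.00444), and spanned more than 4 log2 units among the mutant arrays. Without A2663/v arrays 1 and 3 it no longer passed (adjusted p = 0.0539). rst and mirr also stood higher in Canton S, at 10.15 ± 0.01 and 8.40 ± 0.06, than in BL15598, at 8.18 ± 0.18 and 4.41 ± 0.11.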

How the data were processed

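RNA of 12 ovary samples was hybridised to Affymetrix Drosophila arrays, 3 per genotype, after amplification of 50 ng of total RNA with a NuGEN kit, per the labels' protocols. The deposited log2 values were made with Partek 6.5 and GCRMA, per the submitters' processing notes, and run from 1.60 to 15.64 over 18952 probe sets. The array's genome build is not given in the sources used here. Probe sets were named through the platform annotation, with symbols updated from RefSeq gene IDs for 13544 of them. Of these probe sets, 13647 name 1 gene, 402 several, 4720 have no entry and 183 are controls. For each of 11983 genes the single-gene probe set with the highest mean over 12 arrays was used.

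Genes whose signal exceeded log2 5 in 3 or more of the 6 arrays were fitted with limma 3.58.1 in R 4.3.3, with 4 genotype means over all 12 arrays and a variance trend, and Benjamini-Hochberg adjustment over 5989 genes. The interaction used the same fit. The overlap with Pb/2 minus Canton S used separate fits of 6 arrays. The fit was tested on simulated data. Replicates are biological per the labels.

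Members of the comparison and the 35 gene lists were chosen with earlier results of these data known. Lists overlap in members, and 19 of 1102 entries had no match. Named genes are those of the marker alleles and their neighbours, the ELAV family, the 12 largest rises and falls without overlap of arrays, up to 4 called members per list, and the 5 largest interactions in each direction among called genes. Alternatives covered filters, floor, normalisation, probe set choice, variance model, thresholds, the replicate block and omitted arrays. The planned motif search in promoters was not analysed here.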

Additional observations from a re-analysis of the deposited data

Results flagged for a closer look

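For 46 of the genes named above, the change in A2663/v minus BL15598 differed from that in Pb/2 minus Canton S by the limma interaction test (adjusted p under 0.05 and at least 2-fold). Values below are the interaction on the log2 scale, that is the first change minus the second, over 12 arrays. Differences between the wild-type strains enter these values. BL15598 minus Canton S passed the limma test for some, such as Ten-a (-1.64), Tdc1 (-1.81), Sema1a (-1.58) and cuff (-1.06, adjusted p = 2.55e-08, 3.14e-06, 8.74e-05 and 4.11e-06). For Ten-a and cuff, Canton S was at 10.08 and 8.57 and A2663/v at 10.18 and 8.67. It did not pass for others, such as E(spl)m7-HLH (0.08) and Pis (-0.13, adjusted p = 0.791 and 0.788). Each interaction is A2663/v minus Pb/2 less BL15598 minus Canton S. For mirr, tut and Oat the former was -0.98, -1.98 and -2.30 (limma adjusted p = 0.00109, 1.09e-05 and 5.19e-07), opposite in sign to their interactions. Their wild-type differences, with low signals raised to the floor, were -3.40, -3.61 and -5.865. For Pis and Vm34Ca, A2663/v minus Pb/2 was -3.85 and -4.79 (limma adjusted p = 1.60e-06 and 0.00138), of the same sign as their interactions. Where a group lies below the floor of log2 5, the fitted value is not a measured size, and the value with low signals raised to the floor is given in the last but one paragraph.

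Positive values, a more positive change in A2663/v minus BL15598, were found for the following signalling and neuronal genes. They were 3.40 for Hesr, 3.01 for mirr, 1.35 for E(spl)m7-HLH, 1.27 for Egfr, 2.97 for Ace, 2.74 for Tdc1, 1.599 for SK and 1.57 for Ih. The adhesion and guidance genes gave 3.06 for rst, 2.36 for Ten-a, 1.81 for Sema1a and 1.19 for CadN, and elav gave 1.22. Germline and repair genes gave 3.23 for tut, 2.10 for corolla, 1.32 for tefu and 1.22 for cuff. Enzymes and others gave 6.997 for Send1, 5.85 for Oat, 5.70 for GstE10, 3.41 for CG8888, 2.37 for Pxn, 1.499 for Cyp6a17 and 1.04 for cdi. Uncharacterised genes gave 2.60 for CG5953, 1.32 for CG6329 and 1.05 for CG42565, the last of which fell in both comparisons and by less in A2663/v.

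Negative values were found for the eggshell and yolk genes, at -6.92 for Vm34Ca, -5.75 for Vm26Aa, -4.29 for psd, -1.97 for Yp1, -2.95 for Yp2 and -1.76 for Yp3. Fat body genes gave -1.72 for Fbp1, -1.67 for Fbp2 and -2.44 for Obp99b. Enzyme genes gave -3.71 for Pis, -4.96 for GstE7, -1.47 for Cyp6a9 and -1.29 for Cyp6a19. The others were -5.50 for hpRNA:CR32207, -3.22 for ImpL2, -2.94 for Iris, -2.60 for CG13992, -2.54 for CG33099 and -1.07 for exu.

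With low signals raised to the floor, the positive interactions became 1.99 for Hesr, 2.42 for mirr, 1.08 for Ace, 1.63 for tut, 1.67 for Pxn, 3.66 for Send1, 3.57 for Oat, 5.27 for GstE10 and 1.51 for Cyp6a17. CadN, at 0.73, and CG6329, at 0.86, were then under 2-fold. The negative ones became -4.13 for hpRNA:CR32207, -4.14 for GstE7, -1.69 for CG33099, -3.13 for psd, -4.32 for Vm26Aa and -1.16 for Cyp6a9. The interaction of Pis rests on its brightest probe set, and a second one differed by -0.17 between A2663/v and BL15598.

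Probe sets without a gene entry in the table used here, 4720 in all, were outside the comparison by gene. In the same test, 715 of them passed the filter, and 41 (5.73%) were higher and 21 (2.94%) lower in A2663/v than in BL15598.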

How the results depend on the processing

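The counts of 252 higher and 159 lower genes moved by over 1.5 times under 3 settings. When all 6 arrays had to exceed log2 5, 147 genes were higher, since this filter removes genes below the floor in one group. Without a fold minimum 1260 were higher and 1225 lower, and with a 1.5-fold minimum 610 and 492. Leaving out 1 array at a time gave 218 to 274 higher and 155 to 166 lower genes, 115 to 140 genes shared with Pb/2 minus Canton S and 377 to 447 genes with an interaction. Under the same omissions, added after seeing the data for lists, 9 eggshell genes fell, 4 to 5 ion channel genes and 5 transmitter genes rose, and 8 to 9 P450 genes were called. Without A2663/v arrays 1 and 3, which held the digestive enzyme signal, 239 and 146 genes were called, among them 207 and 138 of the original ones; the lone array left is assumed to vary like the other groups. In that setting the lists gave 9, 5, 5 and 7 calls, and Send1 (adjusted p = 0.0539), Hsp68 (1.22, adjusted p = 0.0523), Cyp18a1 (-0.98) and ncd lost their call. With the digestive signal as a covariate the counts were 272 and 155. Same-numbered arrays did not deviate together (correlations -0.0379, -0.341 and -0.196), and the samples were treated as unpaired. These deviations are from means of 3 arrays and cannot show whether same-numbered samples were handled together. The replicate block gave 254 and 159, 133 shared genes and 419 interactions. Of 1915 values of named genes under 25 alternatives, 1874 kept their direction and side of the threshold, and 59 of 78 named genes did so wherever they were tested. When all 6 arrays had to exceed log2 5, only 46 of the 78 were tested, and Rph, CanB, tipE and Hesr were not among them. The genes CG42404 and ct, not called above, changed sign. CG42404 went from 0.04 to -0.0286 with cyclic loess, to -0.0316 with array quality weights, to -0.11 without A2663/v array 2 and to -0.16 without BL15598 array 2, and ranged from -0.16 to 0.197 over arrays left out. ct went from -0.02 to 0.25 with the mean of its probe sets, to 0.067 without A2663/v array 3 and to 0.0861 without BL15598 array 3, and ranged from -0.103 to 0.0861. The rise of Rbp9 became 0.83 when its probe sets were averaged, 1 of which was at background. Causes of the other changes were not tested. With 3 arrays per group, precision is limited by their number, and changes of genes near the floor are bounds.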
